A study of Rattus norvegicus with 14 samples.

Results

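Hippocampal DNA methylation was compared between epileptic rats on a ketogenic diet and epileptic rats on a standard diet. The comparison held 9 of the 14 animals of the study, 5 labelled PILO+KD and 4 labelled PILO, and the animals were chosen by these labels alone. All were male Wistar rats, and the tissue was dorsal hippocampus from 1 animal per library, with no pooling. PILO and PILO+KD animals received methyl scopolamine, then pilocarpine at 340 mg/kg to bring on status epilepticus, then diazepam, and were observed for 84 days. Animals slow to enter status epilepticus had a further, smaller dose of pilocarpine, and the labels do not name them. PILO animals ate the standard diet and PILO+KD animals the ketogenic diet, begun directly after status epilepticus. Some animals of both groups had EEG electrodes implanted under anaesthesia before pilocarpine, and the labels do not name them. The study reported fewer seizures per week on the ketogenic diet. The parts of seizure burden and of surgery in any difference between the groups were not tested. The 5 control animals (CTRL) were age-matched, ate the standard diet and received methyl scopolamine with saline, and they entered the fit only to estimate the spread and stand beside the diet groups as a reference. Without a group of control animals on the ketogenic diet, an effect of the diet in healthy hippocampus was not analysed here. The study gives the body weight of the rats in place of their age.

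Methylation of the cytosine in CpG dinucleotides is laid down by DNA methyltransferases, and it is read by proteins with a methyl-CpG binding domain. In Methyl-Seq such a domain, fixed to beads, captures methylated fragments, and the tags sequenced from a region therefore become more numerous with the amount and density of its methylated CpGs. The ketogenic diet is rich in fat and poor in carbohydrate, drives the liver to make ketone bodies that the brain burns in place of glucose, and has long been used against seizures that resist drugs. Beta-hydroxybutyrate, the main ketone body, is also known to inhibit histone deacetylases. Because each library came from whole tissue, less methylated DNA per cell and fewer cells carrying the methylated copy cannot be told apart.

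Tags were counted in 310070 regions of the rat genome build rn4, and the 155092 regions at or above the 50th centile of the tag sums over the 14 animals were tested. The 613 regions with the lowest sum kept had 9.19 tags per PILO+KD animal and 9.28 per PILO animal on average, and the 625 regions with 1 tag less, which were left out, had 9.19 in each of these groups. Regions on chromosomes 1 to 20, 145002 in number, were also summed in fixed windows of 100 kb by region start, which gave 24080 windows with a median of 5 regions. Values are counts per 1000000 tags (CPM), scaled by the trimmed mean of M values (TMM). Total tags were 8286533 to 10106466 in PILO+KD and 6972700 to 12391666 in PILO, so that 1 tag stood for 0.0822 to 0.154 CPM in these 9 animals, and intervals from counting error are wide where tags are few. PILO+KD libraries came from the flow cells labelled FC084, FC101, FC102 and FC104, and PILO libraries from FC101 and FC102. Total tags, the TMM factor, the share of tags in tested regions, the share in the regions with most tags per bp and the share on chromosome X gave no difference between the diets beyond the spread of the animals (exact permutation tests, two-sided, p = 0.452 to 0.992, 5 measures). The smallest p that 5 against 4 animals can give is 0.00794.

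No single region and no window passed an adjusted p of 0.05 between the diets. At an unadjusted p below 0.01, the study's cut-off, applied here to edgeR's quasi-likelihood test, 545 of the 155092 regions were called, 0.351% of those tested, 234 with more tags in PILO+KD (0.151%) and 311 with fewer (0.201%). A flat distribution of p values would put 1551 regions there. The smallest adjusted p of any region was 0.307. Of the 24080 windows, 29 were called (0.12%), 14 higher in PILO+KD (0.0581%) and 15 lower (0.0623%; 17 and 10 with DESeq2's size factors), against 241 under a flat distribution, and the smallest adjusted p rounded to 1.0. At an unadjusted p below 0.05 there were 3562 regions (2.3%) and 225 windows (0.934%). Neither DESeq2 nor limma-voom gave an adjusted p below 0.05 for any region or window, whereas edgeR's exact test gave 7 regions and 0 windows. The called counts changed with the handling of the flow cells and with single animals. With the flow cell as a covariate there were 614 regions and 62 windows, and on FC101 alone, with 2 PILO+KD and 3 PILO animals, 862 and 148. The fit on FC101 also holds fewer animals, and FC084 and FC104 held PILO+KD but no PILO animals. The part of the flow cell in these counts was therefore not tested. Without PILO 2 there were 921 called regions, and called windows numbered 54 without PILO 2, 50 without PILO+KD 2, 60 without PILO+KD 4 and 19 without PILO 5. The balance of the calls turned as well. The share of called regions higher in PILO+KD, 42.9% in all animals, ran from 28.8% without PILO+KD 3 to 69.6% without PILO 3, and was 59.2% without PILO+KD 4. The share of called windows higher in PILO+KD, 14 of 29 in all animals, ran from 40.0% without PILO 4 to 78.6% without PILO 3, and it passed 50% without PILO+KD 1, 2, 4 or 211 as well.

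**Figure D1:**
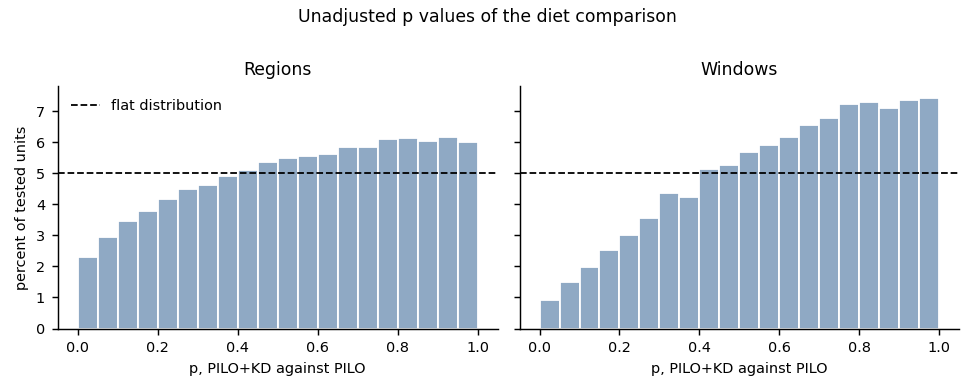
Share of tested regions (left) and windows (right) in bins of the unadjusted p of PILO+KD against PILO, in percent, with a dashed line at the level of a flat distribution. Both histograms climb from left to right, from 2.3% of regions and 0.934% of windows in the lowest bin.

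The precision of the comparison set bounds on most differences. The median standard error of the log2 fold change was 0.26 for a region and 0.13 for a window. For 78.9% of the regions and 98.0% of the windows, the 95% interval of the log2 fold change between the diets lay within -1 and 1. For 23.0% of the regions and 83.7% of the windows it lay within -0.5 and 0.5. At those sites differences larger than these limits lay outside the interval, whereas smaller ones could still be called. An example is chr20:6900001-7000000, called at a log2 fold change of -0.28 with an interval from -0.49 to -0.08.

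Over all sites, the mean likeness of animals on the same diet was not above that of animals on different diets. Across the tested regions the mean Pearson r of log2 CPM was 0.905 over the 10 pairs within PILO+KD, 0.903 over the 6 pairs within PILO and 0.908 over the 20 pairs between the diets. Within-diet minus between-diet r was -0.0036 (exact permutation test over the 9 animals, one-sided for greater likeness within diets, p = 0.833). For windows the means were 0.969, 0.977 and 0.975, with a difference of -0.0035 (p = 0.968 in the same exact test). These coefficients are across sites, which are not independent. The median SD of log2 CPM among the animals of a group was 0.36 in PILO+KD, 0.33 in PILO and 0.31 in CTRL for regions, and 0.22, 0.17 and 0.15 for windows, with no test of the difference.

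No chromosome passed the test as a whole. The summed level of PILO+KD minus PILO lay between 0.0097 on chromosome X and 0.035 on chromosome 7 on the log2 CPM scale. On chromosome 7 the mean log2 CPM was 15.80 ± 0.09 (SD, n = 5) in PILO+KD and 15.77 ± 0.07 (SD, n = 4) in PILO (exact permutation test, two-sided, p = 0.563, adjusted p = 0.883 over chromosomes 1 to 20 and X). On chromosome X it was 15.49 ± 0.20 (SD, n = 5) and 15.48 ± 0.14 (SD, n = 4), with p = 0.937 in the same exact test. Called regions were spread over all chromosomes, from 0.143% of the tested regions on chromosome 15 to 0.515% on chromosome 9. Chromosome X had 12 called among 4809, of which 3 were higher in PILO+KD, sequence not placed on a chromosome had 10 among 5280, and the single mitochondrial region was not called.

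The called regions were small in tags and large in fold. The median absolute log2 fold change of the 545 was 1.00, and 273 of them differed at least 2-fold, against 636 of all tested regions (0.41%). The median standard error was 0.39 in the quartile of regions with fewest tags and 0.18 in that with most. A small fold could therefore seldom be called where tags were few, so large folds at few tags are partly built in. Their median tag sum over all animals was 287, against 405 for all tested regions, and their median length was 758 bp against 787 bp. By quartile of tag sum, from few to many tags, 0.464%, 0.467%, 0.335% and 0.139% of the regions were called. The share of calls with more tags in PILO+KD was 28.3%, 41.4%, 53.8% and 70.4% in the same order. The last of these rests on 54 calls, 38 of them higher. The share over all calls turned with single animals, and whether the trend by tag sum holds without them was not tested. In 237 of the 545 the values of the PILO+KD animals did not overlap those of the PILO animals, as they did not in 1157 of all tested regions (0.746%). Of the 523 called regions on chromosomes 1 to 20, 44 lay within 100 kb of another called in the same direction. The chromosome 7 interval described below held 14 called regions, and the number of neighbours to be found without any clustering was not computed.

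Among the regions higher on the ketogenic diet, the smallest p belonged to chr4:104432883-104433499, 617 bp in length. Its tags were 15, 24, 11, 26 and 14 in PILO+KD 1, 2, 3, 4 and 211, and 0, 1, 0 and 5 in PILO 2, 3, 4 and 5. Every PILO+KD animal was above every PILO animal, and the CTRL animals, with 3 to 11 tags, lay mostly between them. Its tag sum over the 14 animals, 130, was 1 above the lowest sum kept, and most of these tags came from PILO+KD, so that the region passed the filter through the group where it was high. The log2 fold change was 3.41 ± 0.58 (SE, 95% interval 2.22 to 4.60, edgeR adjusted p = 0.307).

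The region chr7:64244332-64246027 separated the PILO+KD animals among themselves. It had 266, 257 and 472 tags in PILO+KD 1, 3 and 211, but 17 and 18 in PILO+KD 2 and 4. The PILO animals had 1, 17, 8 and 12 tags, and the CTRL animals 27, 285, 445, 359 and 247. High and low animals thus stood far apart within PILO+KD and within CTRL, while all PILO animals were low, and the groups did not overlap in CPM, though PILO+KD 2 at 1.79 CPM was close to PILO 5 at 1.51 CPM. The log2 fold change of 4.40 ± 0.82 (SE, edgeR adjusted p = 0.457) averages over these 2 levels. A similar split was seen at chr6:105389471-105389912, where all PILO animals and PILO+KD 1 and 211 had 0 tags, PILO+KD 2, 3 and 4 had 54, 40 and 57, and the CTRL animals 31, 0, 54, 22 and 26. Pooled over animals, PILO+KD was at least 38.3-fold higher there than a floor of 3 tags over the PILO group, with a level of 3.45 CPM. Regions with 0 tags in some animal and at least 20 in another numbered 923 of all tested regions (0.595%) and 13 of the 545 called.

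At chr3:104895289-104896056, PILO+KD animals had 53, 53, 38, 23 and 29 tags and PILO animals 3, 8, 18 and 3. PILO 4 stood above the other PILO animals and, at 2.77 CPM, above PILO+KD 4 at 2.54 CPM. The log2 fold change was 2.20 ± 0.41 (SE, edgeR adjusted p = 0.457). The region chr20:5034460-5035400 had 4.96 ± 1.45 CPM (SD, n = 5) in PILO+KD, 1.54 ± 1.38 CPM (SD, n = 4) in PILO and 6.26 ± 1.64 CPM (SD, n = 5) in CTRL, and again only PILO 4, at 3.55 CPM, overlapped the PILO+KD animals. The region chr3:147192404-147193696 reached 17.0 ± 7.58 CPM (SD, n = 5) in PILO+KD against 8.01 ± 0.81 CPM (SD, n = 4) in PILO, without overlap.

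The 6 regions lower on the ketogenic diet with the smallest p all separated the diets without overlap, as did 710 of all tested regions in that direction (0.458%). At chr10:103061965-103062794 the tags were 7, 10, 12, 14 and 17 in PILO+KD and 21, 53, 23 and 33 in PILO. In CPM the highest PILO+KD animal had 1.80 and the lowest PILO animal 3.11. The CTRL animals had 2.35 to 5.45 CPM, above all PILO+KD animals and overlapping PILO. The log2 fold change was -1.48 ± 0.29 (SE, edgeR adjusted p = 0.547).

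At chr7:13642411-13643169 the tags were 2, 9, 10, 4 and 16 in PILO+KD and 26, 32, 19 and 38 in PILO, with 11 to 45 in CTRL. The deepest tag coverage among the lower regions was at chr1:60226237-60227916, 1680 bp long. It had 206, 198, 171, 245 and 222 tags in PILO+KD and 204, 438, 255 and 409 in PILO, or 24.1 ± 4.28 CPM (SD, n = 5) against 39.3 ± 9.02 CPM (SD, n = 4). The scaled values came close, with PILO+KD 1 at 29.6 CPM and PILO 2 at 30.2 CPM, and the CTRL animals ran from 26.3 to 32.6 CPM across this gap. Its log2 fold change, -0.71 ± 0.16 (SE, edgeR adjusted p = 1.0), was the smallest in size of the 6. The remaining 3, at chr2:235546218-235547088, chr18:78964892-78965525 and chr1:7901035-7902329, had log2 fold changes of -1.48, -1.21 and -0.98, and PILO means of 3.91, 4.01 and 7.37 CPM. With any 1 of the 9 animals left out, each of these 12 regions kept an unadjusted p below 0.01. They had been chosen for the smallest p in these same animals, so this outcome was largely fixed by the choice. The regions at chr18:78964892, chr6:105389471 and chr7:64244332 each lost an unadjusted p below 0.01 in 1 other setting.

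**Figure D2:**
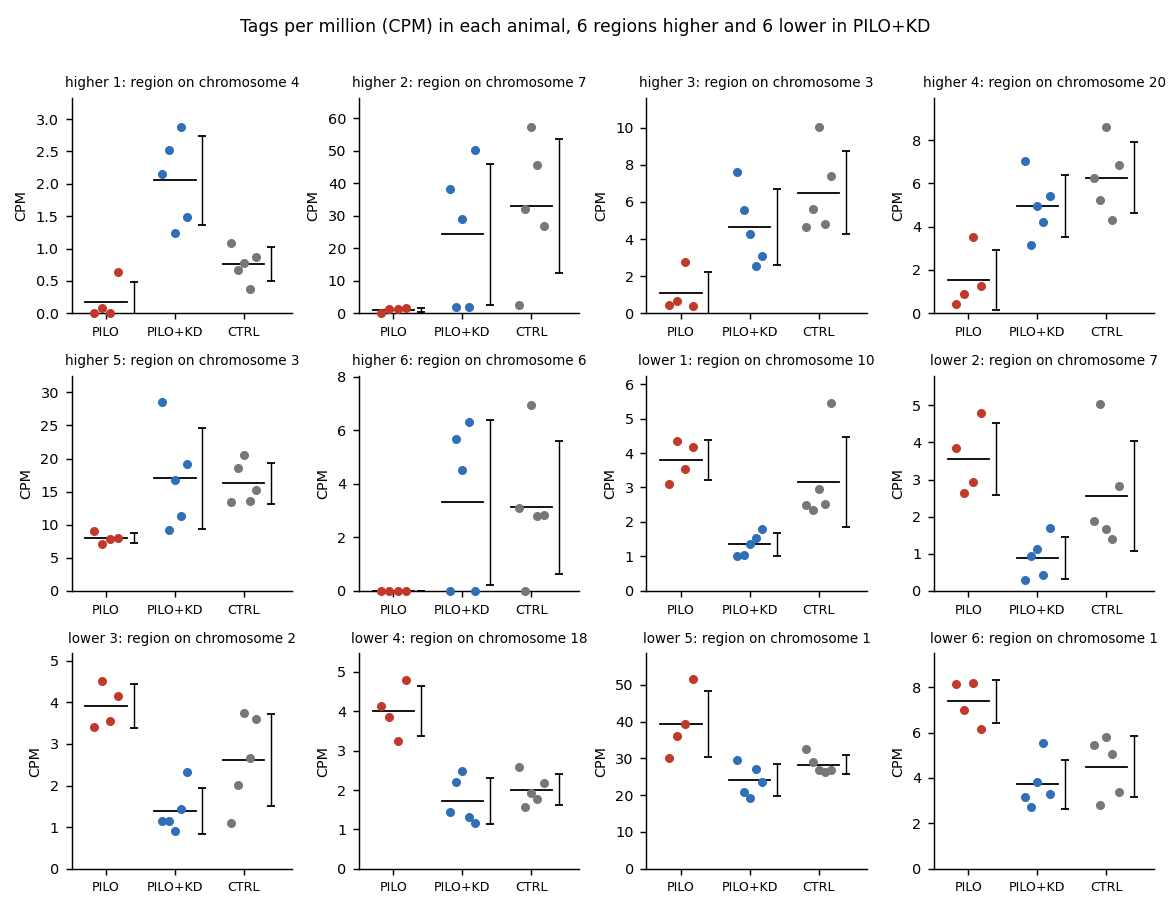
CPM of each animal (points) in the 6 regions higher and the 6 lower in PILO+KD with the smallest p, on linear axes that start at 0, with the group mean (line) and SD (bar at the right of each group). The region on chromosome 7 among the higher ones splits PILO+KD into 3 animals above 29.0 CPM and 2 animals below 2.0 CPM, and all 6 lower regions show PILO+KD below PILO without overlap.

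Summing over 100-kb windows lowered the counting error and left smaller differences. The smallest p among windows belonged to chr9:30200001-30300000. Its CPM was 86.6, 76.9, 47.1, 67.7 and 49.2 in PILO+KD 1, 2, 3, 4 and 211 and 44.7, 25.9, 29.6 and 33.3 in PILO. PILO+KD was higher without overlap (log2 fold change 0.98 ± 0.24 SE, edgeR adjusted p = 1.0), and the CTRL animals, from 27.2 to 78.8 CPM, covered both. A single region, chr9:30211946-30214212, held 91.1% of the tags of this window and had a log2 fold change of 1.08, while of the other 2 regions 1 was lower and neither was called.

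The window chr7:64200001-64300000 repeated the split described above, since 51.0% of its tags came from the bimodal region. The window chr8:48200001-48300000 was of another kind: its 8 regions were all higher in PILO+KD, from 0.05 to 1.03 on the log2 scale, and none was called alone. Its level was 32.1 ± 2.73 CPM (SD, n = 5) in PILO+KD, 24.9 ± 2.83 CPM (SD, n = 4) in PILO and 31.1 ± 2.52 CPM (SD, n = 5) in CTRL, for a log2 fold change of 0.36 ± 0.11 (SE, edgeR adjusted p = 1.0). PILO 5 at 28.0 CPM overlapped PILO+KD 1 at 27.5 CPM. The 3 further windows among the 6 highest all came from chromosome 7 and are described with their neighbours below.

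Among the lower windows, chr8:49000001-49100000 had 2.88, 3.37, 2.94, 1.77 and 3.07 CPM in PILO+KD and 6.66, 4.44, 5.55 and 4.03 CPM in PILO, with all of its 3 regions lower (log2 fold change -0.86 ± 0.23 SE, edgeR adjusted p = 1.0). No PILO+KD animal reached the lowest PILO animal. In chr6:98400001-98500000 all 5 regions were lower and none was called alone, at 6.95 ± 1.26 CPM (SD, n = 5) against 10.3 ± 1.16 CPM (SD, n = 4), again without overlap. The windows chr5:58300001-58400000, chr1:60200001-60300000, chr3:17800001-17900000 and chr6:47200001-47300000 had log2 fold changes of -0.47, -0.40, -0.77 and -1.23 and overlapping animals. The window on chromosome 1 holds the region at 60226237 described above, which carried 51.1% of its tags, and the last of these windows consists of 1 region. Without 1 or another of the animals, 10 of these 12 windows lost an unadjusted p below 0.01, the exceptions being those at 30200001 on chromosome 9 and 49000001 on chromosome 8.

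**Figure D3:**
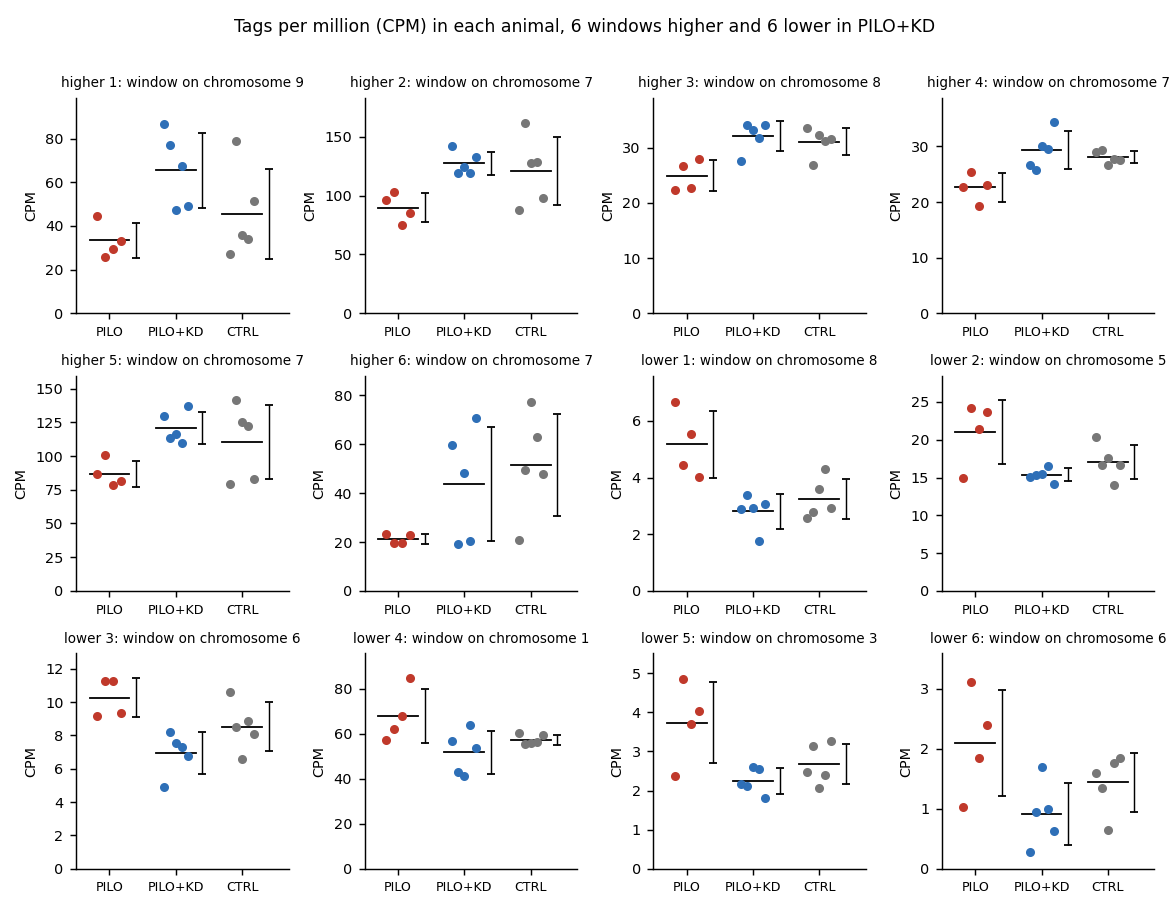
CPM of each animal (points) in the 6 windows of 100 kb higher and the 6 lower in PILO+KD with the smallest p, on linear axes that start at 0, with the group mean (line) and SD (bar at the right). In 6 of the 12 windows the PILO+KD and PILO animals do not overlap, and 3 of the higher windows lie close together on chromosome 7.

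Of the 29 called windows 20 held at least 1 called region, 5 consisted of a single region, and in 16 of the 24 with 2 or more regions every region had the sign of the window. A window is called on the sum of its own regions, so shared signs are partly built in. These counts were not set against the same shares over all windows. In 13 of the 29 the diets did not overlap, as in 83 of all windows (0.345%). Called windows lay on 15 chromosomes. Chromosome 7 had 8 of them, all higher in PILO+KD, and 7 of these 8 fell in an interval of 2.8 Mb, chr7:16700001-19500000. The interval was delimited after its windows had been seen, so its values are a description without a test.

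In this interval 27 windows with 176 regions were tested. PILO+KD was higher in 26 of the 27 windows, against 57% of all tested windows. The median log2 fold change was 0.26, with a range from -0.08 to 0.54, against a median of 0.015 over all windows. At an unadjusted p below 0.05 there were 15 windows, all higher, where 0.478% of all windows were higher at that cut-off. Among the single regions 152 of 176 were higher, against 51% of all tested regions, 47 were higher at p below 0.05 (0.95% of all regions) and 14 at p below 0.01. No region of the interval was lower at either cut-off.

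The difference was not even along the interval, in stretches that were likewise chosen after the windows had been seen. In its first 0.8 Mb all 8 windows were higher, with a median log2 fold change of 0.39, and 6 had p below 0.05. In the middle stretch, chr7:17500001-18300000, 6 of 7 windows were higher but the median was 0.06 and none had p below 0.05. In the last 1.2 Mb all 12 windows were higher, with a median of 0.33 and 9 at p below 0.05. Of the 9 windows tested in the 1 Mb before, 8 were higher with a median of 0.03. Of the 10 windows in the 1 Mb after, 4 were higher with a median of -0.01, and none of these 19 had p below 0.05. The ends were set after the windows had been seen, so the contrast with the flanks follows in part from that choice.

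**Figure D4:**
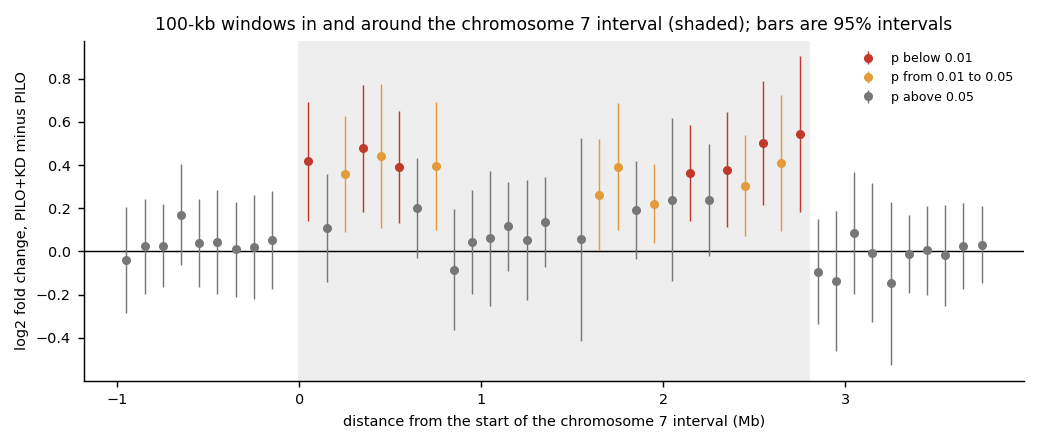
Log2 fold change of PILO+KD minus PILO (points) with 95% intervals (bars) for 100-kb windows on chromosome 7, by distance in Mb from the start of the interval (shaded), coloured by unadjusted p. The windows with p below 0.05 lie in the first and the last stretch of the interval and none lies in the middle stretch or in the flanks. The interval and its stretches were drawn after these values had been seen.

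Within the interval, chr7:19200001-19300000 was higher in PILO+KD at every region, though not beyond the error at most of them. Its 12 regions had log2 fold changes from 0.17 to 0.88. Of these, 9 were not called and 3, chr7:19205322-19206018, chr7:19214051-19215671 and chr7:19278254-19279565, were called, at 0.88, 0.70 and 0.78. The window had 142.1, 119.5, 124.1, 118.9 and 132.5 CPM in PILO+KD 1, 2, 3, 4 and 211 and 96.2, 102.8, 74.8 and 85.2 CPM in PILO. The diets did not overlap (log2 fold change 0.50 ± 0.14 SE, edgeR adjusted p = 1.0), while CTRL ran from 88.1 to 162.0 CPM. The windows chr7:17000001-17100000 and chr7:18800001-18900000 gave 121.1 ± 11.9 against 86.8 ± 9.72 CPM and 29.3 ± 3.41 against 22.7 ± 2.56 CPM (SD, n = 5 and 4), also without overlap, and all of their 8 and 5 regions were higher. The strongest fold of a called region in the interval was at chr7:16738110-16738672, with a log2 fold change of 1.87 ± 0.49 (SE). The longest called region, chr7:19415538-19420503, spans 4966 bp and had 0.55 ± 0.19 (SE).

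Summed over the interval, PILO+KD 1, 2, 3, 4 and 211 had 2236, 1870, 1994, 2120 and 2365 CPM and PILO 2, 3, 4 and 5 had 1753, 1804, 1613 and 1664 CPM. All PILO+KD animals were above all PILO animals, but with total tags in place of TMM the diets overlapped, at a difference of 0.29 on the log2 scale. Of the CTRL animals, 2, 3 and 4 had 2312, 2131 and 2091 CPM, among the PILO+KD values. CTRL 1 and 5 had 1562 and 1720 CPM, among or below the PILO values. The range among CTRL animals, all on 1 diet, was wider than the difference between the diet means. A range of single animals and a difference of means are unlike measures, and the SD of each group is given next. The group means were 2117 ± 195 CPM (SD, n = 5) in PILO+KD, 1709 ± 86.1 CPM (SD, n = 4) in PILO and 1963 ± 311 CPM (SD, n = 5) in CTRL. The difference between the diets was 0.31 on the log2 scale, and it was 0.17 on the flow cell FC101 alone, where PILO+KD 2 and 3 exceeded PILO 2, 3 and 4. The part of the flow cell in the difference was not tested. The 1 Mb before gave 551 ± 54.8, 538 ± 41.0 and 533 ± 28.0 CPM and the 1 Mb after 419 ± 34.1, 419 ± 12.2 and 429 ± 14.8 CPM in PILO+KD, PILO and CTRL (SD, n = 5, 4 and 5), and the diets overlapped in both.

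**Figure D5:**
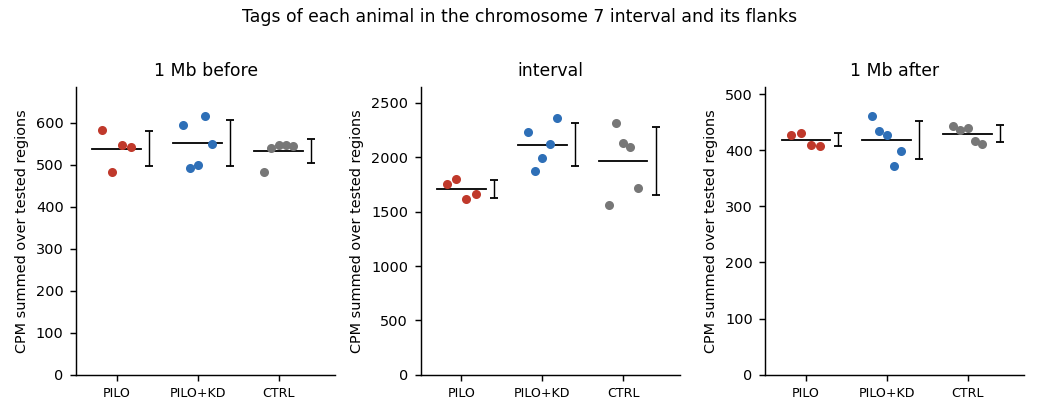
CPM summed over the tested regions of the chromosome 7 interval (centre) and of the 1 Mb before and after it, for each animal (points), with the group mean (line) and SD (bar at the right), on axes that start at 0. In the interval PILO+KD lies at 1870 CPM or more and PILO at 1804 CPM or less, CTRL covers both, and the flanks overlap in all groups.

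The loci that the study followed by bisulfite sequencing did not separate the diets in these counts. By that assay the study reported less Camkk2 hypermethylation on the ketogenic diet and a reversal of the Il10rb hypomethylation. Bisulfite sequencing reads single CpGs in cloned amplicons that cover part of each region. Tags count captured fragments over the whole region, so the measures are unlike. Camkk2 encodes a calcium/calmodulin-dependent kinase kinase that acts upstream of the energy sensor AMPK, and Il10rb encodes a subunit of the interleukin 10 receptor. The region that holds the Camkk2 amplicon, chr12:34936037-34936702, had 13, 11, 19, 7 and 8 tags in PILO+KD, 6, 29, 19 and 16 in PILO and 5 to 16 in CTRL, and the diets overlapped. Its log2 fold change was -0.62 ± 0.38 (SE, 95% interval -1.40 to 0.16, edgeR quasi-likelihood p = 0.116, exact permutation p = 0.246). The Il10rb region, chr11:31381090-31382012, had 3.13 ± 0.90 CPM (SD, n = 5) in PILO+KD and 3.18 ± 1.07 CPM (SD, n = 4) in PILO, with 5.99 ± 1.00 CPM (SD, n = 5) in CTRL, and a log2 fold change between the diets of -0.02 ± 0.25 (SE, 95% interval -0.53 to 0.49, exact permutation p = 0.992). The windows around them gave 0.02 ± 0.10 and 0.11 ± 0.15 (SE).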

How the data were processed

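Methyl-Seq was analysed in 5 PILO+KD, 4 PILO and 5 CTRL rats, grouped by the sample labels. The authors captured methylated DNA from 500 ng, read 36 bp from 1 end of each fragment, used BWA and the build rn4 for alignment, called regions between pairs of animals with MACS (1.4.0 in the submitters' processing notes) and merged them, and they deposited raw tag counts per region and animal, without normalization. Since regions were called as differing between animals, stable methylation is under-represented. Regions below the 50th centile of tag sums were removed as in the study. The study used TMM and a negative binomial model with Bayesian shrinkage in edgeR. Here counts were scaled by TMM and tested by quasi-likelihood (edgeR 4.0.16, R 4.3.3) with a mean per group for all 14 animals and no covariate, and p values were adjusted by Benjamini-Hochberg. Windows used the library sizes of the region fit. Log2 CPM had a prior count of 2. Standard errors are the log2 fold change over the square root of F, and intervals are at 95%. Single values per animal were tested by exact permutation. Named are the 6 higher and 6 lower regions and windows with the smallest p on chromosomes 1 to 20, the highest and lowest chromosome, and the regions and windows of the Camkk2 and Il10rb amplicons (at least 1 bp). The chromosome 7 interval with its stretches, windows and regions, and further regions inside named windows, were added after their values were seen. Members and lists were chosen with earlier results of these data known. Starts in the table count from 0 and are printed from 1. Alternatives changed the scaling, the filter, the test (DESeq2 1.42.0, limma-voom in limma 3.58.1, edgeR's exact test), the animals, the flow cell, the replicate block, thresholds and the window grid. The fit was also run on simulated counts, drawn independently and without an effect of the flow cell. They differ from these data in that, so the run does not show how well the fit performs here. Genes, promoters, sequences and cell type markers in rn4 coordinates were not analysed here.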

Additional observations from a re-analysis of the deposited data

Results flagged for a closer look

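Among 108 groups of 4 or 5 values examined (each named region and window, the library measures and the chromosome 7 interval with its flanks, in each of the 3 groups), 4 held a sample far from the others, and chance flags about 1 in 20 groups. In the chromosome 4 region at 104432883, PILO 5 had 0.630 CPM where the next PILO animal had 0.0822 CPM, which is 5 tags against 1. In the chromosome 3 region at 104895289, PILO 4 had 2.77 CPM and the next PILO animal 0.658 CPM. In the chromosome 10 region at 103061965, CTRL 5 had 5.45 CPM and the next CTRL animal 2.96 CPM. In the 1 Mb before the chromosome 7 interval, CTRL 1 had 483 CPM and the next CTRL animal 541 CPM.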

How the results depend on the processing

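The counts of called units depended on the settings. For regions (545 with p below 0.01) the count was 3562 at p below 0.05 and 0 at an adjusted p of 0.05 or 0.1, 1663 without a filter, 240 with at least 10 tags in every animal, 862 on the largest flow cell alone, and 488 to 921 with 1 animal left out. Regions with an adjusted p below 0.05 numbered 5 without a filter, 1 with only the 9 pilocarpine animals, 11 on the largest flow cell, 7 in edgeR's exact test and 0 to 2 with 1 animal left out. For windows (29) the count was 225 at p below 0.05 and 0 at an adjusted p of 0.05 or 0.1, 148 on the largest flow cell, 62 with the flow cell as a covariate, 49 in the exact test, 81 for windows of 50 kb, 1 for windows of 1 Mb, 15 with at least 5 regions per window, 22 without the chromosome 7 interval (7 higher, added after seeing the data) and 19 to 60 with 1 animal left out. The windows split into 17 higher and 10 lower with DESeq2's size factors and 18 and 10 with TMM on the window table, against 14 and 15. A replicate block gave 471 regions and 26 windows, 5 of them higher. Deviations from the group mean in same-numbered PILO and PILO+KD animals correlated with r from -0.085 to 0.283 over 3 pairs, with a mean of 0.127. The pairs numbered 2 (r = -0.085) and 3 (r = 0.283) also shared the flow cell FC101. Over the 17 pairs with different numbers the mean was -0.021. With so few same-numbered pairs, whether the numbers pair the animals cannot be decided. Within-diet minus between-diet likeness was -0.0071 for regions and -0.00079 for windows on the largest flow cell, and -0.0055 to -0.0021 and -0.0053 to -0.0011 with 1 animal left out. The chromosome count with an adjusted p below 0.05 was 0 throughout. The difference in the chromosome 7 interval was 0.17 on the largest flow cell and 0.26 to 0.35 with 1 animal left out. Signs turned where values were near 0. The Il10rb region gave 0.19 on the largest flow cell, 0.10 with the flow cell as a covariate and -0.21 to 0.15 with 1 animal left out. The Camkk2 window gave -0.0073 without a filter and -0.021 to 0.079 with 1 animal left out, and chromosome X -0.0087 with total tags and -0.061 to 0.063 with 1 animal left out. Chromosome 7 gave -0.0031 to 0.068 with 1 animal left out. The chromosome 7 window at 64200001 gave -0.025 with at least 10 tags in every animal, where its bimodal region is removed. Elsewhere the cause was not tested.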
